A study of Homo sapiens with 6 samples.

Results

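The Polycomb repressive complex genes described here are 10, EZH1, EZH2, EED, SUZ12, JARID2, PHF19, BMI1, CBX7, CBX8 and RNF2, followed in HPNE-hTERT cells given FOLFIRINOX or vehicle. They were picked out by gene symbol, from a set proposed with earlier results of these data known, and each matched a single row of the 62754 genes in the deposited table. HPNE-hTERT is a non-malignant human pancreatic line, labelled ductal epithelial and immortalized with telomerase. The treated group received FOLFIRINOX for 4 days, as 5-fluorouracil at 10 µM, SN-38 (the active form of irinotecan) at 25 nM and oxaliplatin at 5 µM, a regimen which the labels say was used to make the cells senescent. The other group received the vehicle DMSO without the drugs and was likewise labelled day 4. Each group had 3 libraries of polyadenylated RNA from this single line, known by the numbers P14, P15 and P19 that the deposited columns carry in both groups. Nothing in the labels states that the libraries are independent cultures, and the p-values below therefore describe the spread among these libraries alone, which may be technical.

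Polycomb proteins keep genes silent through chromatin. Polycomb repressive complex 2 (PRC2) places methyl groups on lysine residue K27 of histone H3, with EZH2 or its paralog EZH1 as the enzyme, EED as the subunit that reads the finished mark, and SUZ12 as the scaffold. Polycomb repressive complex 1 (PRC1) puts ubiquitin on histone H2A through RNF2 or RING1, each paired with a PCGF protein such as BMI1, and its canonical form binds the PRC2 mark through a CBX protein such as CBX7 or CBX8. PHF19 and JARID2 belong to different accessory classes of PRC2 that help it reach chromatin. EZH2 is known for high levels in dividing cells and EZH1 for its presence in resting ones. The CDKN2A locus, a classic Polycomb target, encodes inhibitors of cell division that are associated with senescence.

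The promoters of 4 members are shown because they hold letters of an E2F binding site, the element through which many cell cycle genes are controlled, and because both members that fell, EZH2 and PHF19, are among them beside SUZ12 and RNF2, which did not pass the test. The sequences are those of RefSeq on GRCh38.p14, from 250 bases before to 50 bases after the annotated start, written 5′ to 3′ on the strand of the gene, with the matched letters in capitals.
EZH2, chr7:148884242-148884541, minus strand: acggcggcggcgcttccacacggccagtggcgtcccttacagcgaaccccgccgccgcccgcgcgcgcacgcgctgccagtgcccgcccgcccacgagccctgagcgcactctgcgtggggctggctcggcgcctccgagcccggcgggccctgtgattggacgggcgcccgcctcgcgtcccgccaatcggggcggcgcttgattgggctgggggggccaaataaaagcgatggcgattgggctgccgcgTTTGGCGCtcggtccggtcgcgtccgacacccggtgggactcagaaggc
PHF19, chr9:120877139-120877438, minus strand: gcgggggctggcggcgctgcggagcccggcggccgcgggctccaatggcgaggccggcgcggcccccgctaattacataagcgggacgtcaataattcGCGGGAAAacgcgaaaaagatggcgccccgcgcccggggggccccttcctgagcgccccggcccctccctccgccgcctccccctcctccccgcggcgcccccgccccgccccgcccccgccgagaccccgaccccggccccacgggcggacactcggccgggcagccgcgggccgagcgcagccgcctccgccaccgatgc
SUZ12, chr17:31936757-31937056, plus strand: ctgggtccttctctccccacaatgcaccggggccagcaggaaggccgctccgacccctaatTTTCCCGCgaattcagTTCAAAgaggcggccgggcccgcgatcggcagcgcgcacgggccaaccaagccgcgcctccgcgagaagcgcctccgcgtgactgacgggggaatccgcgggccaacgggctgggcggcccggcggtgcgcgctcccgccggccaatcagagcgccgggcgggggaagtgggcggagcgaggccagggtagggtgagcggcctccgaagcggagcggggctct
RNF2, chr1:185045308-185045607, plus strand: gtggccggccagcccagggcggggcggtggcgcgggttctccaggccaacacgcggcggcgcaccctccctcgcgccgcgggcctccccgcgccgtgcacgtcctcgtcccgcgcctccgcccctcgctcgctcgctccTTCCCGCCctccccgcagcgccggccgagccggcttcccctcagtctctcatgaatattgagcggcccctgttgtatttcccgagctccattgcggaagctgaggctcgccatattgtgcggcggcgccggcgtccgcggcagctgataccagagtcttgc

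The E2F letters searched, on both strands, were TTTCCCGC, TTTGGCGC, TTTCGCGC and TTCCCGCC, of which the first and the last can overlap. In EZH2 the match TTTGGCGC began at position 2 after the start on the gene's own strand, while in PHF19 the match was TTTCCCGC on the opposite strand, with its leftmost base at position −152. SUZ12 held TTTCCCGC from position −189 and RNF2 held TTCCCGCC from position −111, both on the gene's own strand. A second kind of element known from genes of the late cell cycle, the CHR with letters TTTGAA or TTTAAA, was matched in SUZ12 at position −173, on the opposite strand and also in capitals above, and in JARID2 at position −107. The table had promoters for 9 of the 10 members, in 13 windows because EZH2, JARID2, PHF19 and BMI1 have 2 starts each, and CBX8 is named only. The E2F letters stood in 4 of these 13 windows, against 5.03% of 35116 promoter windows in the table outside chromosome 8, and the CHR letters in 2 of them, against 24% of all. These shares were not matched for GC content, which ran from 52.3% (EED) to 91% (a BMI1 window) in the members. The other windows of EZH2 and PHF19 held no E2F match, and the matched PHF19 window lies inside the gene span given below. A match is a description of letters and not a site of binding.

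Values below are normalized reads, which are read counts that the authors divided by a size factor for each library. Tests were made with limma on log2(value + 1) over the 17951 genes that reached 10 normalized reads in 3 or more libraries, a filter that all 10 members passed, and a gene was called at a Benjamini-Hochberg adjusted p below 0.05. Fold changes are on the log2(value + 1) scale, which understates the change of low genes. At these settings 23.6% of all genes tested were called, 11.4% higher and 12.2% lower with FOLFIRINOX. Among the members, 2 were called higher (BMI1 and CBX7), 2 were called lower (EZH2 and PHF19) and 6 were not called. With so few members these counts are given beside the background and say nothing of the members as a group. The median log2 difference was 0.01 over the members and 0.02 over all genes tested. With P number as a block the same 4 members were called, while 44.1% of all genes were called (22.3% higher and 21.8% lower). On recovered reads, edgeR called these same 4 members and 23.4% of all genes (10.1% higher and 13.3% lower), and DESeq2 called them and 19.4% of 23247 genes (9.5% higher and 9.89% lower). When libraries were scaled to a common total, 2 members were called higher and 2 lower, beside 15% and 9.46% of all genes.

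The libraries held 83981154 to 97762802 reads in genes. The proliferation marker MKI67 averaged 30.2 ± 6.65 normalized reads with FOLFIRINOX and 13874 ± 3569 with vehicle, and CDKN1A, which encodes the p53-induced inhibitor p21, averaged 203806 ± 27900.2 and 22156 ± 4997 (SD, n = 3 each). Reads of mitochondrial ribosomal RNA made up 1.18% to 2.74% of the FOLFIRINOX libraries and 0.552% to 0.864% of the vehicle libraries, with the P14 library highest in each group. Of 10 ductal epithelial markers, 7 reached 10 in at least 1 FOLFIRINOX library and 6 in at least 1 vehicle library, with summed values of 8966 to 9959 and 11979 to 14439.7 normalized reads. KRT7, KRT8, KRT18 and SOX9 gave most of these sums, whereas KRT19 had at most 17.7 and CFTR at most 9.35 normalized reads in any library, and EPCAM was at 0 in 2 of the 3 FOLFIRINOX libraries and in all 3 vehicle libraries. MUC1 had 55.6 to 104 and CDH1 43.5 to 73.0 normalized reads, so the ductal markers were present in part, with KRT19, CFTR and EPCAM near 0. All 7 mesenchymal markers reached 10 in both groups, with sums of 747330 to 980004 with FOLFIRINOX and 1246570 to 1914080 with vehicle. Leukocyte markers summed to at most 70.0 and 15.4, endothelial markers to at most 19.5 and 38.2, acinar markers to at most 8.23 and 0, and endocrine markers to at most 1.87 in each group. The part of these marker levels and of the ribosomal share in the results below was not tested.

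EZH2, the main PRC2 enzyme of dividing cells, had the largest fall of the 10 members. It had 239, 319 and 329.7 normalized reads in P14, P15 and P19 given FOLFIRINOX, against 1732, 2109 and 3149.7 in the same P numbers given vehicle. Every FOLFIRINOX library lay far below every vehicle library, and within the vehicle group P19 was highest. The means were 296 ± 49.7 with FOLFIRINOX and 2330.5 ± 734 with vehicle (SD, n = 3 each), a log2 difference of −2.94 ± 0.24 (SE), with a 95% interval of −3.47 to −2.42 and an adjusted p of 8.32e-06 (limma), or 7.69-fold lower. Within P14, P15 and P19 the log2 differences were −2.85, −2.72 and −3.25. In a bulk library, fewer cells that hold a transcript and less of it per cell cannot be told apart. The gene lies at chr7:148807383-148884321 on the minus strand of GRCh38.

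EZH1, the paralog with weaker methyltransferase activity, did not pass the test. It had 2456, 2765 and 2992 normalized reads with FOLFIRINOX, against 2257, 2963 and 2698 with vehicle. The groups overlapped and P14 was the lowest library in each. Its log2 difference was 0.06 ± 0.17 (SE), with a 95% interval of −0.32 to 0.43 and an adjusted p of 0.838 (limma). The gene is on the minus strand at chr17:42700275-42745049.

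The balance between both enzymes was compared on a scale that allows levels of different genes to be set side by side, normalized reads per kilobase of exon. On this scale EZH1 made up 86.9%, 84.9% and 85.5% of the summed EZH1 and EZH2 level in P14, P15 and P19 given FOLFIRINOX, against 45.7%, 47.6% and 35.7% given vehicle. The groups did not overlap, with means of 85.8% ± 1.06 and 43.0% ± 6.43 (SD, n = 3 each). With the length of the longest transcript in place of all exons the means were 88.0% and 47.8%. The vehicle shares of EZH1 were then 50.6%, 52.5% and 40.3% in P14, P15 and P19. With either length EZH1 was the more abundant enzyme RNA in every FOLFIRINOX library, whereas in vehicle libraries this depended on the length used. The summed level of both enzymes was 457 ± 49.1 per kilobase of exon with FOLFIRINOX and 893 ± 188 with vehicle. The log2 ratio of EZH1 to EZH2 reads averaged 3.22 with FOLFIRINOX and 0.22 with vehicle, a difference of 3.00 with a two-sided exact permutation p of 0.1, the smallest that 3 against 3 libraries allow (adjusted 0.125 over 5 ratios).

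The core subunits EED and SUZ12 were not called. EED, the reader of the finished mark, had 2327, 2328 and 2204 normalized reads with FOLFIRINOX, against 2169.8, 2148 and 2407 with vehicle. These ranges overlapped and no library stood out. The log2 difference of EED was 0.03 ± 0.15 (SE), with a 95% interval of −0.30 to 0.36 and an adjusted p of 0.906 (limma). SUZ12, the scaffold, had 3045, 3871 and 5606 normalized reads with FOLFIRINOX, against 3684, 3835 and 6036 with vehicle. P19 was the highest library of both groups, and the groups overlapped almost entirely. The log2 difference of SUZ12 was −0.12 ± 0.25 (SE), with a 95% interval of −0.68 to 0.43 and an adjusted p of 0.761 (limma). With P number as a block and each library's GC trend removed, the log2 differences were −0.23 for EED and −0.30 for SUZ12, with adjusted p-values of 0.044 and 0.00639 (limma), where 49.1% of all genes were called. The pseudogene SUZ12P1, which resembles SUZ12, had at most 8.85 normalized reads in any library. EED lies at chr11:86244544-86278813 and SUZ12 at chr17:31937018-32001045, both on the plus strand.

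The accessory subunit PHF19, a Polycomb-like protein, fell as well, with no overlap between the groups. It had 673, 791 and 597 normalized reads in P14, P15 and P19 given FOLFIRINOX, against 3145, 3102 and 2858 given vehicle. The vehicle libraries differed little from each other, and each lay well above every FOLFIRINOX library. Means were 687 ± 97.7 with FOLFIRINOX and 3035 ± 155 with vehicle (SD, n = 3 each). The log2 difference was −2.15 ± 0.17 (SE), with a 95% interval of −2.52 to −1.78 and an adjusted p of 6.65e-06 (limma), or 4.44-fold lower. Within the P numbers the log2 differences were −2.22, −1.97 and −2.26. Among the Polycomb-like trio PHF19, MTF2 and PHF1, PHF19 gave 11.7% ± 1.46 of the summed level per kilobase with FOLFIRINOX and 39.1% ± 0.633 with vehicle (SD, n = 3 each), without overlap. The gene lies at chr9:120855652-120894896 on the minus strand.

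JARID2, a Jumonji-family protein and a PRC2 cofactor without demethylase activity, did not pass the test. It had 2009, 2178 and 2078 normalized reads with FOLFIRINOX, against 2098, 2744 and 2367 with vehicle. The groups overlapped, although the FOLFIRINOX library was below its vehicle partner in all 3 P numbers. FOLFIRINOX minus vehicle came to a log2 difference of −0.19 ± 0.16 (SE), with a 95% interval of −0.55 to 0.17 and an adjusted p of 0.423 (limma). The log2 ratio of JARID2 to PHF19 reads averaged 1.61 with FOLFIRINOX and −0.34 with vehicle, and the groups lay apart (difference 1.96, two-sided exact permutation p = 0.1, adjusted 0.125 over 5 ratios). JARID2 lies at chr6:15246296-15522040 on the plus strand.

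**Figure D1:**
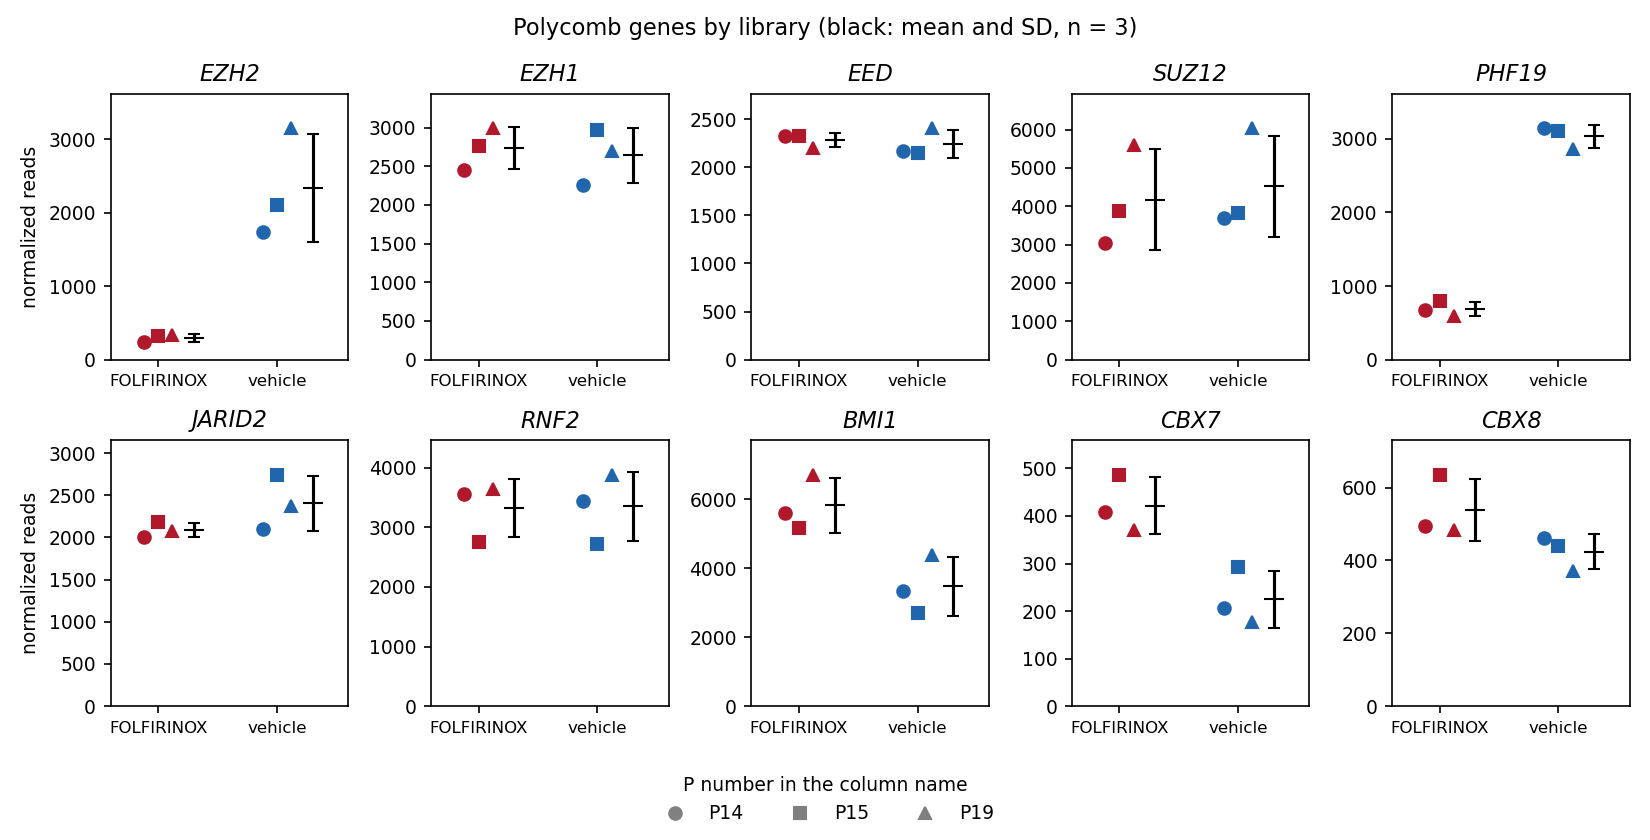
Normalized reads (linear axis from 0, its own scale in each panel) of the 10 members in each library, FOLFIRINOX in red on the left and vehicle in blue on the right, with a marker shape for each P number and the group mean and SD in black (n = 3). EZH2 and PHF19 lie lower in every FOLFIRINOX library, BMI1, CBX7 and CBX8 lie higher in every one, and the other members overlap.

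In PRC1, the ubiquitin ligase RNF2 (RING1B) was not called. It had 3552, 2758 and 3639 normalized reads with FOLFIRINOX, against 3443, 2727 and 3881 with vehicle. P15 was lowest in both groups, and the ranges overlapped. For RNF2 the log2 difference was −0.01 ± 0.19 (SE), with a 95% interval of −0.42 to 0.40 and an adjusted p of 0.974 (limma). RNF2 gave 36.1% of the summed RNF2 and RING1 level per kilobase with FOLFIRINOX and 35.4% with vehicle, with overlapping ranges. The gene lies at chr1:185045364-185102608 on the plus strand.

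BMI1 (PCGF4), a PCGF partner that binds RNF2 in canonical PRC1 and is known as a repressor of the CDKN2A locus, rose. It had 5609, 5157 and 6710.0 normalized reads in P14, P15 and P19 given FOLFIRINOX, against 3343, 2701 and 4386 given vehicle. The groups did not overlap, and the order P19, P14, P15 was the same in both. Means were 5825 ± 799 with FOLFIRINOX and 3477 ± 850.4 with vehicle (SD, n = 3 each), a log2 difference of 0.76 ± 0.20 (SE), with a 95% interval of 0.32 to 1.20 and an adjusted p of 0.0183 (limma), or 1.70-fold higher. Within the P numbers the log2 differences were 0.75, 0.93 and 0.61, and the adjusted p was 3.4e-06 with P number as a block. The call was lost without the FOLFIRINOX P19 library (adjusted p = 0.0775), without vehicle P14 (0.0574), without vehicle P15 (0.0754), without both P14 libraries (0.0963) and with limma without a trend (0.0616). The readthrough gene COMMD3-BMI1 shares 1000 exonic bases with BMI1, 23.3% of its exonic length, and was listed at 0 in all libraries. Reads on shared bases cannot be told apart here, so this 0 does not show that the readthrough was absent. BMI1 lies at chr10:22321211-22331484 on the plus strand.

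On the per-kilobase scale BMI1 gave 29.1% ± 1.34 of the summed level of the 6 PCGF genes with FOLFIRINOX and 21.2% ± 2.80 with vehicle (SD, n = 3 each), without overlap, while the shares of PCGF1, PCGF2, PCGF3, PCGF5 and PCGF6 overlapped between the groups. The log2 ratio of BMI1 to RNF2 reads averaged 0.81 with FOLFIRINOX and 0.04 with vehicle, a difference of 0.77 with a two-sided exact permutation p of 0.1 (adjusted 0.125 over 5 ratios).

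The chromobox gene CBX7, whose protein reads the PRC2 mark for canonical PRC1, rose. It had 407, 487 and 371 normalized reads in P14, P15 and P19 given FOLFIRINOX, against 206, 292 and 177 given vehicle. P15 was highest and P19 lowest in both groups, which did not overlap. Means were 422 ± 59.3 with FOLFIRINOX and 225 ± 59.8 with vehicle (SD, n = 3 each). The log2 difference was 0.93 ± 0.23 (SE), with a 95% interval of 0.41 to 1.44 and an adjusted p of 0.0153 (limma), or 1.90-fold higher. Within the P numbers the log2 differences were 0.98, 0.74 and 1.06. The call was lost without the FOLFIRINOX P15 library (adjusted p = 0.0612), without vehicle P14 (0.053) and without both P14 libraries (0.0943), all with limma. An opposite-strand gene, AL031846.2, shares 1338 exonic bases with CBX7, 17.9% of its exonic length, and had at most 1.97 normalized reads. Whether reads were counted by strand is not given in the sources used here. CBX7 lies at chr22:39120167-39152674 on the minus strand.

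Its relative CBX8 also stood higher in every FOLFIRINOX library, without passing the test. It had 496, 635 and 484 normalized reads with FOLFIRINOX, against 462, 439 and 372 with vehicle. The groups lay apart by a narrow gap, between FOLFIRINOX P19 and vehicle P14. The log2 difference was 0.34 ± 0.19 (SE), with a 95% interval of −0.09 to 0.77 and an adjusted p of 0.24 (limma). With the block and GC trends removed it was 0.50 with an adjusted p of 0.00186 (limma). The log2 ratio of CBX7 to CBX8 reads averaged −0.35 with FOLFIRINOX and −0.94 with vehicle (difference 0.59, two-sided exact permutation p = 0.1, adjusted 0.125 over 5 ratios). CBX8 lies at chr17:79792132-79801683 on the minus strand.

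**Figure D2:**
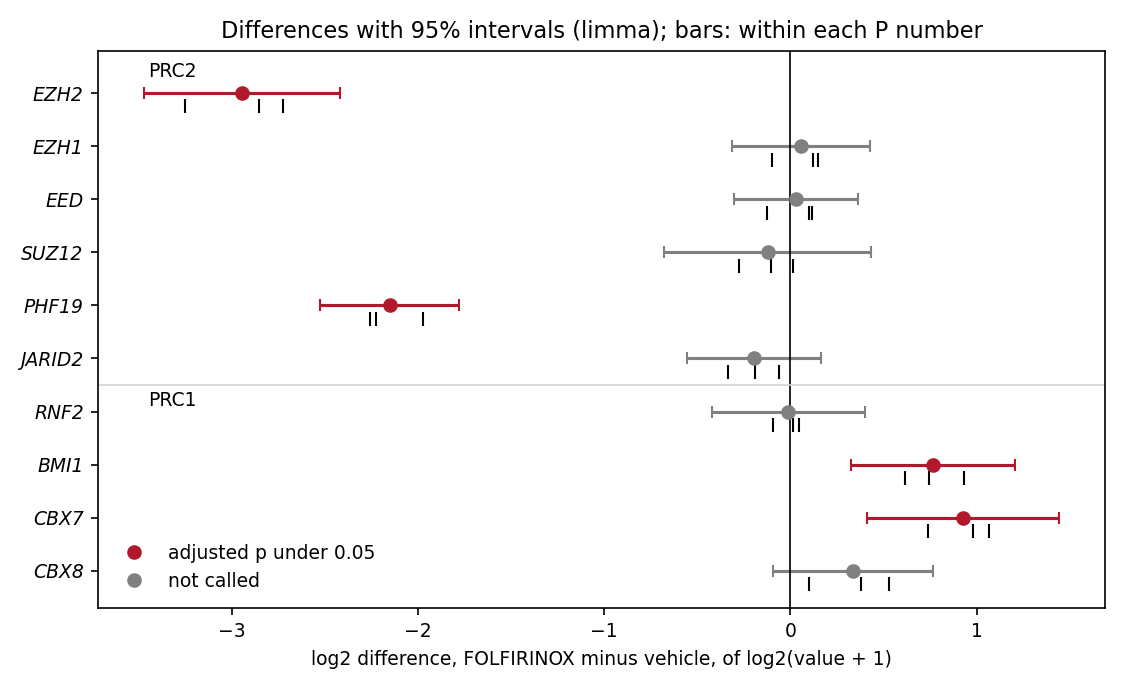
Log2 difference, FOLFIRINOX minus vehicle, of each member with its 95% interval from limma, and the differences within P14, P15 and P19 as short vertical bars; called members are red. EZH2 and PHF19 lie at −2.94 and −2.15, CBX7 and BMI1 at 0.93 and 0.76, and the intervals of the other 6 members include 0.

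On the per-kilobase scale the levels ran BMI1, RNF2, SUZ12, EZH1, JARID2, EED, CBX8, PHF19, EZH2 and CBX7 with FOLFIRINOX, and RNF2, BMI1, SUZ12, EZH2, PHF19, JARID2, EZH1, EED, CBX8 and CBX7 with vehicle. Lengths here are of all exons, and places in the order, with the overlaps between neighbours, depend on the length used. EED has 7016 exonic bases but 2767 in its longest transcript, and CBX7 has 7461 and 4081. BMI1 had a mean level of 1360.1 per kilobase with FOLFIRINOX and 812 with vehicle. EZH2 had a mean level of 65.4 per kilobase with FOLFIRINOX and 515 with vehicle. PHF19 had 102.0 per kilobase with FOLFIRINOX and 451 with vehicle. Both stood near the low end of the order with FOLFIRINOX and in its middle with vehicle. With FOLFIRINOX, neighbours whose library ranges overlapped were RNF2 and SUZ12, EZH1 and JARID2, CBX8 and PHF19, and EZH2 and CBX7. With vehicle, each of the first 8 overlapped its neighbour, and EED, CBX8 and CBX7 lay apart from one another.

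**Figure D3:**
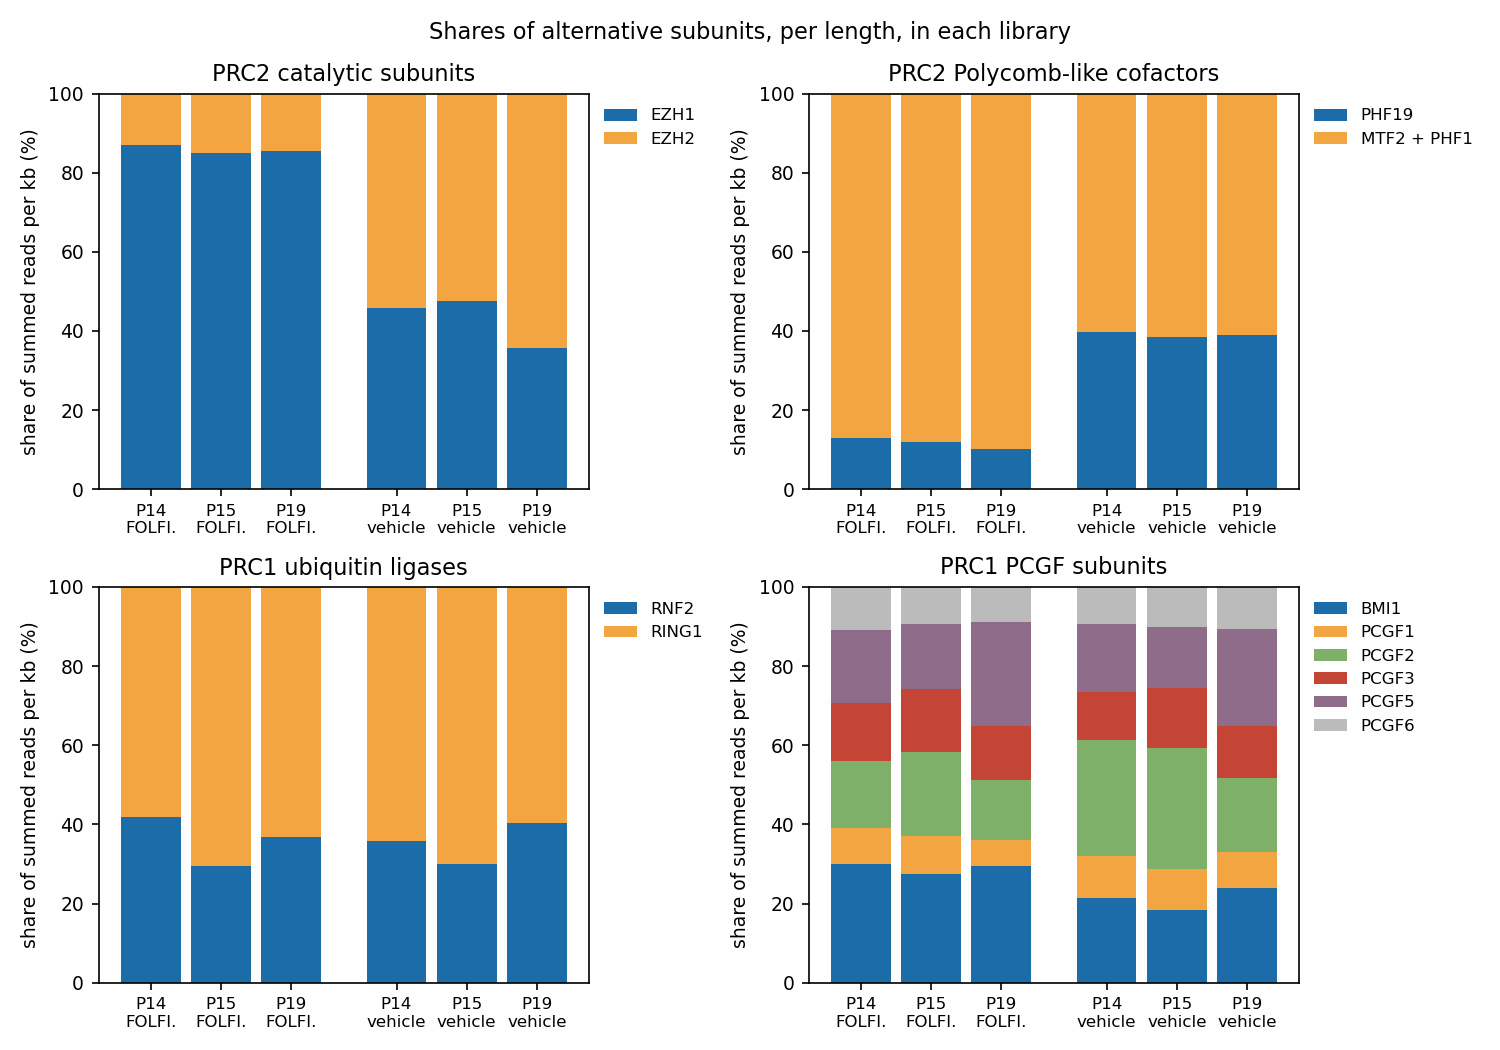
Stacked bars of the share (%) of summed normalized reads per kilobase of exon taken by each alternative subunit, a bar for each library, for the EZH, Polycomb-like, RING and PCGF genes, with FOLFIRINOX left of vehicle. EZH1 takes 84.9% to 86.9% of the EZH1 and EZH2 level in FOLFIRINOX libraries and 35.7% to 47.6% in vehicle libraries.

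EZH2, SUZ12, JARID2, BMI1, CBX7 and RNF2, 6 of the 10 members, had their libraries in the same order of P number in both groups, or 60%, against 30.2% of all genes tested. The groups of 3 members higher and 2 lower with FOLFIRINOX did not overlap, where 19.9% of all genes tested were higher and 19.6% lower without overlap. The authors' deposited table, a DESeq2 fit, gives log2 fold changes of −2.98 for EZH2, −2.14 for PHF19, 0.744 for BMI1 and 0.909 for CBX7, with adjusted p-values of 1.61e-30, 6.02e-27, 0.00562 and 0.00406, and adjusted p-values of 0.317 or more for the other 6 members. The DESeq2 fit on recovered reads gave the same values for all 10 members, so it repeats the authors' fit and is no separate result.

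Around the members, other genes of the machinery were summarized from lists written from general knowledge. Their counts stand beside the background already given, 11.4% of all genes called higher and 12.2% lower, or 22.3% and 21.8% with P number as a block. Of 9 other PRC2 genes, 8 were tested, 0 were called higher and 2 lower (limma, median log2 difference −0.06), and EZHIP was listed at 0 in every library. RBBP7, a histone-binding subunit, had 10514, 8752 and 9058 normalized reads with FOLFIRINOX, against 13533, 14117 and 16622 with vehicle, so that the groups did not overlap (log2 difference −0.64 ± 0.16 SE, adjusted p = 0.0127, limma). EPOP, a PRC2 cofactor, had 76.1, 100.3 and 63.5 normalized reads with FOLFIRINOX, against 131, 151 and 133 with vehicle (log2 difference −0.80 ± 0.26 SE, adjusted p = 0.0443, limma). The RBBP7 call was lost without FOLFIRINOX P15 (adjusted p = 0.0557) and without FOLFIRINOX P19 (0.0595), and the EPOP call in 5 of the 6 fits that left out a library, all but the one without FOLFIRINOX P15 (adjusted p from 0.0373 to 0.178). EPOP was also not called with DESeq2 (0.0599), without a filter (0.104), with common-total scaling (0.083) and without both P14 libraries (0.144); with DESeq2 the list still had 2 genes lower, LCORL (0.043) being called in its place. With P number as a block 0 of the 8 were higher and 3 lower, beside 22.3% and 21.8% of all genes.

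Of 24 other PRC1 genes, all tested, 0 were called higher and 6 lower, beside 11.4% and 12.2% of all genes, and their median log2 difference was −0.12. The 3 largest differences were those of AUTS2, CBX2 and SCML2. AUTS2, which binds a PCGF-containing PRC1, had 72.0, 70.8 and 36.4 normalized reads with FOLFIRINOX, against 191, 221 and 147 with vehicle (log2 difference −1.67, adjusted p = 0.0035, limma). CBX2 had 12.3, 25.6 and 18.7 normalized reads with FOLFIRINOX, against 49.2, 59.4 and 62.6 with vehicle (log2 difference −1.60, adjusted p = 0.011, limma, or 0.0523 without both P14 libraries). SCML2, a Sex comb on midleg homolog, had 183, 205 and 192 normalized reads with FOLFIRINOX, against 421, 486 and 657 with vehicle (log2 difference −1.40, adjusted p = 9.52e-04, limma). None of these 3 genes overlapped between the groups. With P number as a block 4 were higher and 7 lower, beside 22.3% and 21.8% of all genes, and with GC trends also removed 3 were higher and 9 lower, beside 24.5% and 24.6%. The count of genes called lower was 3 when either P14 library, vehicle P15 or FOLFIRINOX P19 was left out, and 2 when both P14 libraries were.

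Of 21 genes that counteract Polycomb, such as the demethylases KDM6A and KDM6B, the deubiquitinase BAP1 and the methyltransferases of other histone residues, 0 were called higher and 1 lower, beside 11.4% and 12.2% of all genes (median log2 difference −0.14). The gene that fell was NSD2, which methylates histone H3 at K36. It had 3326, 3355 and 3257 normalized reads with FOLFIRINOX, against 14152, 18059.7 and 17214 with vehicle, with nearly equal values in the FOLFIRINOX libraries and a wide gap between the groups. The log2 difference was −2.31 ± 0.15 (SE), adjusted p = 1.89e-06 (limma), or 4.95-fold lower. With P number as a block 1 gene was higher and 5 were lower, beside 22.3% and 21.8% of all genes, and without vehicle P19 1 gene was called higher.

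Loci that Polycomb is known to silence were read as the CDKN2A and CDKN2B genes and the 39 HOX genes. Of these 41 genes, 16 were tested, 1 was called higher and 1 lower, beside 11.4% and 12.2% of all genes (median log2 difference −0.005), and 25 did not pass the filter on low values. Not all of the 41 genes were silent in this line without the drugs. With vehicle, CDKN2B had 1930.0 to 2365 normalized reads and the HOXB genes summed to 26928 to 32594. CDKN2A had 396, 460.3 and 338 normalized reads with FOLFIRINOX, against 675, 551 and 458 with vehicle. The groups overlapped, and each FOLFIRINOX library was below its vehicle partner (log2 difference −0.49 ± 0.21 SE, adjusted p = 0.121 with limma, 0.0165 with P number as a block, and 0.0539 with the block and GC trends removed). CDKN2B, its neighbour encoding another inhibitor of cyclin-dependent kinases, rose, with 3010.0, 2976 and 2982 normalized reads with FOLFIRINOX, against 2008, 2365 and 1930.0 with vehicle (log2 difference 0.51 ± 0.16 SE, adjusted p = 0.0353, limma). That call was kept without vehicle P15 and lost without each of the other 5 libraries (adjusted p from 0.0475 to 0.123), and it was lost with limma without a trend (0.0654) and without both P14 libraries (0.14).

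Summed by cluster, HOXB genes had 24975 to 27929 normalized reads with FOLFIRINOX and 26928 to 32594 with vehicle. The HOXA sums were 1308 to 1638 with FOLFIRINOX and 1219 to 1421 with vehicle. HOXC sums reached at most 30.9 with FOLFIRINOX and 28.7 with vehicle, and HOXD sums 22.6 and 15.4, and 5 HOXC and 6 HOXD genes were listed at 0 in every library. HOXB6 fell, with 2228, 2492 and 2201 normalized reads with FOLFIRINOX, against 3521, 3878 and 3603 with vehicle (log2 difference −0.67 ± 0.15 SE, adjusted p = 0.00892, limma), a call lost without FOLFIRINOX P19 (0.0517). Among the target loci, with P number as a block 1 was higher and 4 lower, beside 22.3% and 21.8% of all genes, and the count called lower was 0 without FOLFIRINOX P19 and 3 without vehicle P19.

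**Figure D4:**
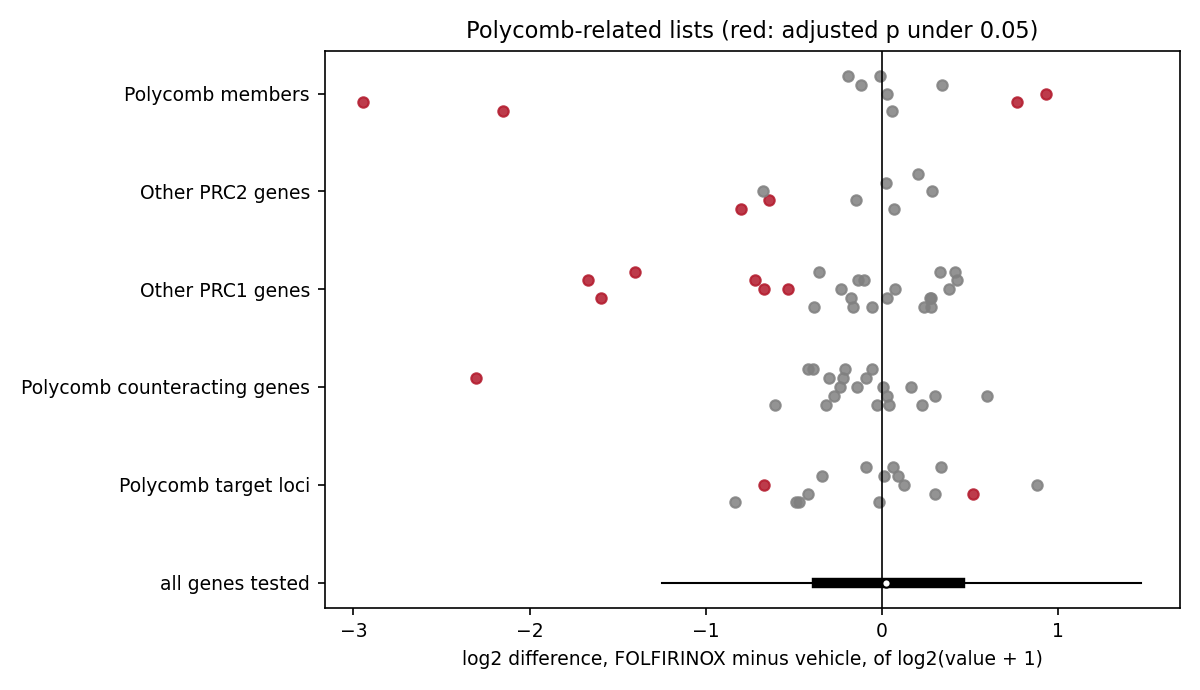
Log2 difference, FOLFIRINOX minus vehicle, of every tested gene in the Polycomb members and in the 4 other lists, with called genes in red and the others in grey; the bottom row gives the 5th, 25th, 50th, 75th and 95th percentiles of all genes tested. EZH2, PHF19 and NSD2 lie at −2.94, −2.15 and −2.31, and the highest gene of the other lists lies at 0.88.

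The genes whose library profile was most like that of EZH2 were sought over the 6 libraries among 12108 genes with a mean of 100 or more, by the root mean square difference of centred log2 values. They included ARHGAP11A (0.14), GAS2L3 (0.14) and FANCI (0.155). ARHGAP11A had 496, 552 and 775 normalized reads with FOLFIRINOX, against 3382, 4024 and 6795 with vehicle, a log2 difference of −2.92. Its near-identical partial copy ARHGAP11B is a separate row of the table, so reads of ARHGAP11A may have been divided between them. For EZH1 they were SEC24B (0.0195), GON4L (0.0322), SON (0.0335) and NUTM2B-AS1 (0.0336), whose levels overlapped between the groups as those of EZH1 did. Such a shared fall or overlap follows from how these genes were chosen and is no separate result.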

How the data were processed

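RNA with poly(A) tails was sequenced from HPNE-hTERT cells, with 3 libraries for each treatment. Per the submitters' processing notes, FastQC 0.12.1, STAR 2.7.11b, featureCounts 2.0.6, DESeq2 and GRCh38 were used; neither annotation release nor strand setting is given there. The deposited table gives, for 62754 genes, a signal that the authors scaled by a size factor for each library, beside the authors' log2 fold changes and p-values. Each signal value was a whole multiple, within 0.001, of 1 read's value in its column (100% of values), so reads were recovered. Even numbers made up 72.3% to 74.8% of counts below 50.

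Group came from the column names, which carry a P number found in no label. Deviations from group means correlated at 0.257, 0.282 and 0.288 for equal P numbers and at −0.263 to −0.027 for unequal ones, so P number was read as a pairing from the column names and used as a block in an alternative fit. Deviations within a group cancel out, so the negative correlations largely follow from the positive ones and are no separate support for the pairing.

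Groups were compared with limma 3.58.1 (trend in the prior variance) on log2(value + 1), filter 10 in 3 libraries, Benjamini-Hochberg threshold 0.05 over 17951 genes; median SE was 0.226. Since the values proved to be whole reads, edgeR 4.0.16 and DESeq2 1.42.0 were alternatives on the recovered reads. Ratios of reads had exact permutation tests. Lengths and coordinates came from GENCODE 29. Replicates differed by more than sampling noise (chi-square per degree of freedom 76.3 to 234). The steps were tested on simulated data. Members and lists were chosen with earlier results of these data known. Named genes were the members, up to 3 called genes per list and direction with the largest difference and a higher group mean of at least 50, CDKN2A, CDKN2B, MKI67, CDKN1A and the 4 genes most like EZH2 and EZH1; 1 of these, and some other genes of the lists, are not reported here.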

Additional observations from a re-analysis of the deposited data

How the results depend on the processing

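EZH2 and PHF19 were called lower in every alternative run. Of 561 recomputed values, 483 were counted as unchanged. A gene counted so if it stayed on its side of the threshold, without a reversal of direction where either fit called it. A change of sign with no call in either fit also counted, as for SUZ12 (−0.12, or 0.08 without FOLFIRINOX P14). Ratios had to keep their direction, and list counts to stay within 1.5 times. Where values changed, the cause was not tested. With P number as a replicate block, no member's call changed. The share of all genes called was then 22.3% higher and 21.8% lower, against 11.4% and 12.2% without the block, and beside that general gain 4 other PRC1 genes were higher and 7 lower, 1 counteracting gene was higher and 5 lower, and 1 target locus was higher and 4 lower. With the block and GC trends removed (24.5% and 24.6% of all genes), 3 members were higher and 4 lower, with EED at −0.23; 1 other PRC2 gene was higher and 4 lower, 3 other PRC1 genes were higher and 9 lower, 2 counteracting genes were higher and 5 lower, and 4 target loci were higher and 3 lower. Members called higher numbered 1 with limma without a trend and 0 without both P14 libraries. Other PRC2 genes called lower numbered 1 without a filter, with common-total scaling and without both P14 libraries. Other PRC1 genes called lower numbered 3 without a trend and 2 without both P14 libraries, and 1 was higher with common-total scaling. Target loci called lower numbered 2 with edgeR, and 0 were higher without both P14 libraries.

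Leaving out each library in turn gave 0 to 2 members called higher, 1 other PRC2 gene called lower each time, 3 to 7 other PRC1 genes lower, 0 to 1 counteracting genes higher, 0 to 1 target loci higher and 0 to 3 lower, and a log2 ratio difference of −0.41 to 0.065 for SUZ12 over EED. Scaling to a common total moved the median of all genes to 0.13 on the log2 scale, against 0.02 with the authors' scaling, and the share of calls that were higher to 61.2%, against 48.3% (43.7% with TMM). The common-total scaling, the removal of both P14 libraries and longest transcript lengths were chosen after seeing the data. Low genes such as CBX2 rest on few reads, and the 95% intervals of the 6 members not called reach −0.68 and 0.77 on the log2 scale.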
